A study of Mus musculus with 8 samples.

Results

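Renal phosphate transport was described through 6 genes found by symbol in the deposited expression table, where each symbol matched a single row among 23386 genes. They were the brush-border sodium-phosphate cotransporters Slc34a1 and Slc34a3, the widely expressed cotransporters Slc20a1 and Slc20a2, the phosphate exporter Xpr1, and Slc9a3r1, the scaffold that holds Slc34a1 at the brush border. The 4 KO libraries came from Ctrp1-/- mice, homozygous for a deletion in exon 4 of C1qtnf1 (strain B6;129S5-C1qtnf1tm1Lex/Mmucd), and the 4 WT libraries from +/+ littermates. All animals were 49 weeks old, labelled C57BL/6J, and derived from a 129S5/Sv stem cell allele that had been backcrossed to C57BL/6J. Each library was poly-A RNA of 1 whole left kidney, so all cell types of the organ were mixed. The deletion is constitutive and was present in every tissue of the KO mice. The labels do not give the sex of each animal, but Xist was at most 0.0169 and the Y-linked Ddx3y at least 9.48 scaled FPKM in every library.

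Phosphate is freely filtered in the kidney, and most of it is taken back by the proximal tubule. NaPi-IIa (Slc34a1) and NaPi-IIc (Slc34a3) carry it with sodium across the apical membrane. Parathyroid hormone and FGF23 withdraw both from that membrane, and phosphate shortage adds them to it. PiT-1 (Slc20a1) and PiT-2 (Slc20a2) serve phosphate supply in many cell types, and XPR1 is the exporter known from animal cells. NHERF1 (Slc9a3r1) binds the tail of NaPi-IIa through a PDZ domain and ties it to the cytoskeleton through ezrin.

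The libraries held 15027400 to 19256378 counted reads. Values are scaled FPKM (fragments per kilobase of gene, corrected for library size, each library divided by 1 scaling factor), given as mean ± SD over 4 libraries. The fold changes come from limma fitted over 14022 genes on log2(scaled FPKM + 0.5), and calls were made where the Benjamini-Hochberg adjusted p lay under 0.05. The targeted gene C1qtnf1 was at 0.325 ± 0.174 in KO and 3.63 ± 0.877 in WT, a log2 fold change of -2.32 (SE 0.18, limma adjusted p = 0.000768). WT replicate 3 stood apart from the other WT libraries, with the lowest sum of straight tubule markers (437 scaled FPKM, against 616 to 703 in the other WT libraries), and values without it are given for Slc34a1, Slc34a3, Slc20a1, Slc9a3r1, the hormone genes and the convoluted and straight tubule markers. Relative to the mean of the 8 libraries, its levels fell with GC content over all genes (Spearman's rho -0.25). In the other WT libraries rho was 0.28 to 0.47, and in KO it was -0.39 to -0.069. Fits without WT replicate 3 therefore compare groups that do not overlap in this trend.

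None of the 6 transporter genes was called (0 of 6), where 0.0499% of all genes tested were. All 6 passed the filter on low values in both groups. At an unadjusted limma p under 0.05, 2 of the 6 were lower in KO (Slc34a1 and Slc34a3) and 1 was higher (Slc20a1), where 8.26% and 7.18% of all genes were, or 15.4% together. The KO and WT libraries did not overlap for 2 of the 6, where 8.62% of all genes were so separated. Both of these were lower in KO (4.28% of all genes) and 0 were higher (4.34% of all genes). The median log2 fold change of the 6 was -0.071, against -0.0012 for all genes tested. Over all genes the log2 fold change fell with GC content (Spearman's rho -0.44), so genes rich in GC tended to be lower in KO. In bulk kidney, fewer cells of a type and less RNA per cell cannot be told apart.

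**Figure D1:**
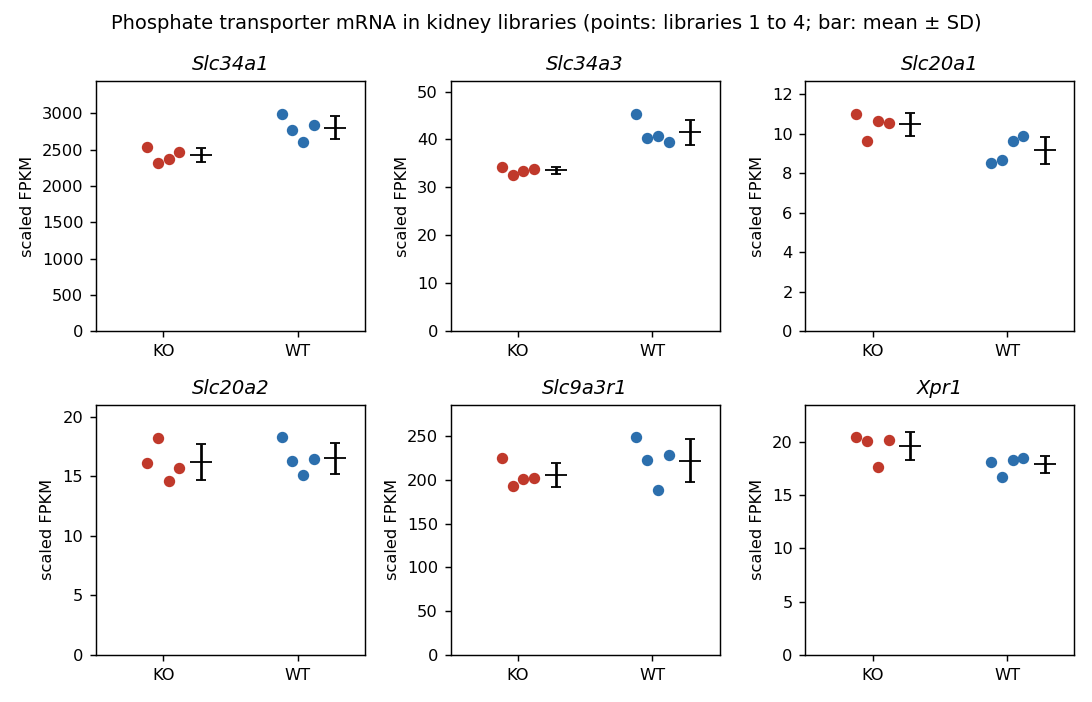
Scaled FPKM (vertical axes, linear, from 0) of the 6 phosphate transporter genes in the KO (red, left) and WT (blue, right) kidney libraries; each point is a library, and bars give mean ± SD (n = 4). The groups are separated for Slc34a1 (2539 at most in KO, 2611 at least in WT) and for Slc34a3 (34.3 at most in KO, 39.6 at least in WT), and overlap in the other panels.

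Slc34a1 was the most abundant member by far. It ranked 14 among all genes by mean level, and its 114935 to 151664 reads made up 0.739% to 0.765% of the counted reads in KO and 0.812% to 0.921% in WT. The gene (ENSMUSG00000021490; chromosome 13, 55399648 to 55414695, plus strand, mm10) has 13 exons in its principal GENCODE vM21 transcript. It measured 2539, 2318, 2370 and 2464 scaled FPKM in KO replicates 1 to 4, against 2995, 2773, 2611 and 2837 in WT replicates 1 to 4. Every KO library lay below every WT library, and the closest were KO replicate 1 and WT replicate 3. The means were 2422 ± 98.3 in KO and 2804 ± 159 in WT, so the KO mean was 86.4% of the WT mean. The log2 fold change was -0.21 (SE 0.065, 95% interval -0.36 to -0.064) and did not pass, with a limma adjusted p of 0.213. An exact two-sided permutation test with all 70 arrangements of the libraries gave an unadjusted p of 0.0286, the smallest that 4 against 4 allow. With quantile normalization, which forces all libraries to share 1 distribution, the fold change of Slc34a1 was -0.025 (limma adjusted p = 0.864). Without WT replicate 3 it was -0.24 (limma adjusted p = 0.0905), and without WT replicate 1 it was -0.18 (limma adjusted p = 0.396). When trends with GC content and with gene length were subtracted within each library, it was -0.15 (limma adjusted p = 0.403).

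Slc34a3 had the smallest unadjusted p of the members. The gene (ENSMUSG00000006469; chromosome 2, 25228898 to 25234364, minus strand) also has 13 exons in its principal transcript, and 1101 to 1574 reads per library were behind its values. It measured 34.3, 32.6, 33.4 and 33.9 scaled FPKM in KO replicates 1 to 4, against 45.4, 40.3, 40.7 and 39.6 in WT replicates 1 to 4. The 4 KO libraries lay close together, with a coefficient of variation of 2.17%, against 6.36% in WT. Counting error alone at this depth gives about 2.70%, which is more than the spread seen among the KO libraries. The means were 33.6 ± 0.729 in KO and 41.5 ± 2.64 in WT, which puts KO at 80.9% of WT. The log2 fold change was -0.30 (SE 0.053, 95% interval -0.42 to -0.18), the unadjusted limma p was 0.000242 and the limma adjusted p of 0.108 did not pass. The exact two-sided permutation p of Slc34a3, unadjusted, was also 0.0286. Without WT replicate 1, its highest library, the fold change of Slc34a3 was -0.26 (limma adjusted p = 0.212), and without WT replicate 3 it was -0.31 (limma adjusted p = 0.0659). With GC and length trends subtracted it was -0.24 (limma adjusted p = 0.234).

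The proportion of the type II cotransporters to each other was compared within libraries, where any single factor per library cancels. Slc34a3 stood at 1.35%, 1.41%, 1.41% and 1.38% of the Slc34a1 level in KO replicates 1 to 4, and at 1.52%, 1.45%, 1.56% and 1.39% in WT replicates 1 to 4. The groups overlap, because WT replicate 4 lay within the KO range. The mean ratios were 1.39% ± 0.0272 in KO and 1.48% ± 0.0715 in WT, a difference of -0.094 on the log2 scale with a within-group SD of 0.053. With quantile normalization, whose correction depends on the level of a gene and does not cancel, the difference of the ratio was -0.26. Added together per length, the 4 sodium-phosphate cotransporter mRNAs were almost all Slc34a1, which made up 97.6% ± 0.0816 of the sum in KO and 97.7% ± 0.0766 in WT.

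Slc20a1 was the least abundant member and differed in the other direction. The gene (ENSMUSG00000027397; chromosome 2, 129198764 to 129211616, plus strand) had 448 to 638 reads per library. It measured 11.0, 9.65, 10.7 and 10.6 scaled FPKM in KO replicates 1 to 4, against 8.50, 8.66, 9.65 and 9.87 in WT replicates 1 to 4. Of the 4 KO libraries, 3 lay above all WT libraries, and KO replicate 2 lay level with WT replicate 3 and below WT replicate 4. The means were 10.5 ± 0.581 in KO and 9.17 ± 0.689 in WT, so KO was at 114% of WT. The log2 fold change was 0.18 (SE 0.068, 95% interval 0.032 to 0.33), and it did not pass (limma adjusted p = 0.260). The exact two-sided permutation p of Slc20a1 was 0.0571, unadjusted. Without WT replicate 3 the fold change of Slc20a1 was 0.21 (limma adjusted p = 0.151). With GC and length trends subtracted it was 0.16 (limma adjusted p = 0.380). The unadjusted limma p of Slc20a1 was 0.0227 with all libraries. It lay above 0.05 without KO replicate 1 (0.0633), KO replicate 3 (0.0509), WT replicate 1 (0.0665) or WT replicate 2 (0.0666). A gene on the other strand, 9830144P21Rik, overlaps the end of Slc20a1 and measured 0.277 to 0.666 scaled FPKM.

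Slc20a2 showed no difference that these libraries could resolve. The gene (ENSMUSG00000037656; chromosome 8, 22476700 to 22569607, plus strand) measured 16.1, 18.2, 14.6 and 15.7 scaled FPKM in KO replicates 1 to 4, against 18.3, 16.3, 15.1 and 16.5 in WT replicates 1 to 4. The ranges overlap almost fully. The means were 16.2 ± 1.52 in KO and 16.5 ± 1.31 in WT. The log2 fold change was -0.032 (SE 0.079), and its 95% interval of -0.21 to 0.14 leaves room for a KO level between 86.6% and 110% of WT (limma adjusted p = 0.873). Smim19 on the other strand and the noncoding Gm17491 on the same strand, within the span of Slc20a2, were present at 13.9 to 18.7 and 4.48 to 5.48 scaled FPKM. Reads in a stretch shared with Smim19 cannot be assigned where strand is not stated, and strand would not separate Gm17491 from Slc20a2. The ratio of Slc20a1 to Slc20a2 was 0.683, 0.529, 0.730 and 0.671 in KO replicates 1 to 4, and 0.465, 0.532, 0.639 and 0.598 in WT replicates 1 to 4. KO replicate 2 lay below 3 of the WT libraries, and the mean ratios of 0.653 ± 0.0865 in KO and 0.559 ± 0.0762 in WT differed by about the within-group spread. On the log2 scale the difference of this ratio was 0.23 with a within-group SD of 0.20. It was 0.14 without WT replicate 1 and 0.32 without KO replicate 2.

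Xpr1, which releases phosphate from cells, had a KO mean above the WT mean. The gene (ENSMUSG00000026469; chromosome 1, 155275701 to 155417415, minus strand, with 15 exons in its principal transcript) measured 20.4, 20.1, 17.6 and 20.2 scaled FPKM in KO replicates 1 to 4, against 18.1, 16.7, 18.3 and 18.5 in WT replicates 1 to 4. KO replicates 1, 2 and 4 lay above all WT libraries, whereas KO replicate 3 lay below 3 of them. The means were 19.6 ± 1.31 in KO and 17.9 ± 0.792 in WT. The log2 fold change was 0.13 (SE 0.061, 95% interval -0.012 to 0.26) and did not pass (limma adjusted p = 0.356). When trends with GC content and with gene length were subtracted within each library, the fold change of Xpr1 was 0.010 (limma adjusted p = 0.963). Its transcripts had 42.9% GC, below the median of 50.8% over all genes tested.

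Slc9a3r1, the NHERF1 scaffold gene, was the member nearest to the targeted locus. It lies on chromosome 11 (ENSMUSG00000020733; 115163341 to 115181181, plus strand), 3.25 Mb before C1qtnf1. Whether 129S5 sequence around the targeted allele reaches it in the KO mice was not tested. It measured 225, 193, 201 and 202 scaled FPKM in KO replicates 1 to 4, against 249, 223, 189 and 228 in WT replicates 1 to 4. WT replicate 3 was the lowest of the 8 libraries and the other WT libraries lay above 3 of the 4 KO libraries. The means were 205 ± 13.7 in KO and 222 ± 24.9 in WT, and the log2 fold change of -0.11 (SE 0.084, 95% interval -0.30 to 0.079) did not pass (limma adjusted p = 0.551). Without WT replicate 3 the fold change of Slc9a3r1 was -0.19 (limma adjusted p = 0.151). It was -0.055 without WT replicate 1 (limma adjusted p = 0.825) and -0.014 once GC and length trends were subtracted (limma adjusted p = 0.961). For the tested genes next to Slc9a3r1 on either side the group means differed by less than the SD. AF251705 stood at 2.04 ± 0.727 in KO and 2.18 ± 0.843 in WT, and the acetyltransferase gene Nat9 at 21.5 ± 1.79 in KO and 21.9 ± 2.49 in WT (limma adjusted p of 0.916 and 0.907). These neighbours do not cover the rest of the chromosome. Most of the 7 genes called over all genes, C1qtnf1 among them, lie on chromosome 11, some higher and some lower in KO. A relation of those differences to the Slc9a3r1 level was not tested.

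**Figure D2:**
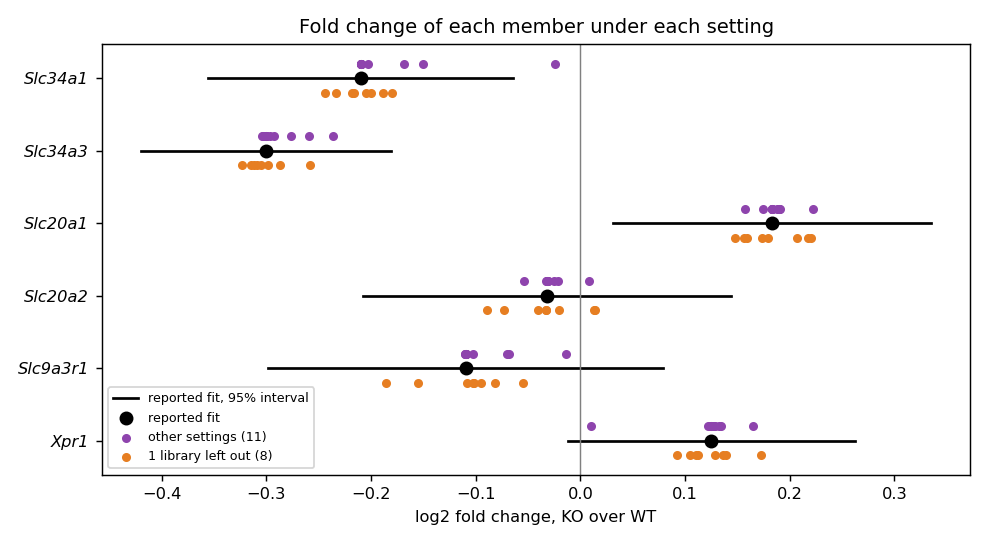
Horizontal axis, log2 fold change (KO over WT) of the 6 members; black points and lines are the reported limma fit with its 95% interval, purple points the 11 other settings and orange points the 8 fits that leave out 1 library. The purple and orange Slc34a3 points lie between -0.32 and -0.24, whereas the Slc34a1 points reach from -0.24 to -0.025.

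The order of the levels was Slc34a1, Slc9a3r1, Slc34a3, Xpr1, Slc20a2 and Slc20a1. Slc34a1 exceeded Slc9a3r1 by 11.3-fold to 13.8-fold within libraries, and Slc9a3r1 exceeded Slc34a3 by 4.64-fold to 6.55-fold. Slc34a3 was 1.62-fold to 2.51-fold above Xpr1. Xpr1 and Slc20a2 were the only neighbours whose order changed between libraries, with Xpr1 higher in 7 of 8. Slc20a2 exceeded Slc20a1 in 8 of 8.

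Across animals, Slc34a1 and its scaffold gene varied together. After each genotype's mean was subtracted, Pearson's r between Slc34a1 and Slc9a3r1 over the 8 libraries was 0.955 (permutation p = 0.000397, adjusted over the 15 pairs of members p = 0.00595), and Spearman's rho was 0.929 (permutation p = 0.0022, adjusted p = 0.0335). The permutations mixed the deviations of both genotypes. Those of each genotype sum to 0, so they are not fully exchangeable, and the p values are approximate and can be too small. WT replicate 1 was the highest of its group for both genes and WT replicate 3 the lowest, and without these 2 libraries r was 0.891. The pair was the only 1 of 15 to pass. Pairs with genes outside the members were not tested in this way, so the relation is not shown to be particular to Slc34a1 and Slc9a3r1. For Slc34a1 and Slc34a3, r was 0.702 (permutation p = 0.0459, adjusted p = 0.328) and rho 0.643 (permutation p = 0.0962, adjusted p = 0.721), with r at 0.547 without WT replicates 1 and 3. The relation of Slc34a1 to Slc9a3r1 had an r of 0.878 with GC and length trends subtracted (permutation, adjusted p = 0.0882), 0.857 with an upper-quartile factor (adjusted p = 0.0889), 0.676 with quantile normalization (adjusted p = 0.709) and 0.931 without WT replicate 1 (adjusted p = 0.0565). Transcripts of both genes are rich in GC (55.5% and 58.5%), and the libraries differed in how their levels ran with GC content over all genes. Spearman's rho across genes was -0.39 to -0.069 in KO, -0.25 in WT replicate 3 and 0.28 to 0.47 in the other WT libraries. The part of that trend in the relation was tested only by that subtraction.

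**Figure D3:**
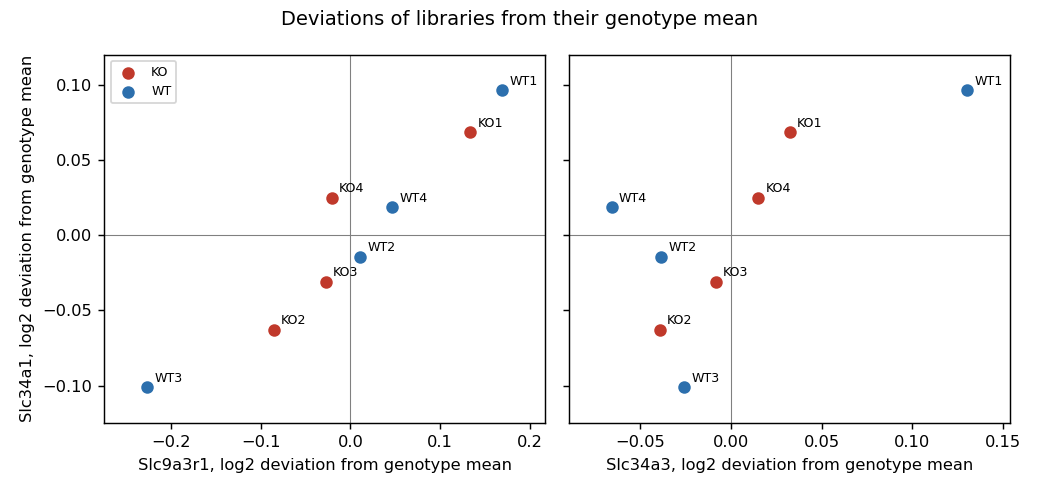
Log2 deviation of Slc34a1 from its genotype mean (vertical axis) against that of Slc9a3r1 (left) and Slc34a3 (right) in each KO (red) and WT (blue) library. On the left the libraries follow a line from WT3 to WT1 (r = 0.955), and on the right they are more scattered (r = 0.702).

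The promoters of the members are of different kinds. RefSeq promoter sequences (GRCm38.p6, 250 bases before to 50 after the start) were found for 5 members, all but Slc20a2. That of Slc34a1 held 2 CpG dinucleotides and that of Slc34a3 also 2, although the RefSeq start of Slc34a3 lies 130 bases inside the span of the deposited table. Those of Slc20a1, Slc9a3r1 and Xpr1 held 36, 27 and 17, where the median of all 32851 promoters was 7. The palindromic E-box CACGTG, which reads the same on both strands and is bound by basic helix-loop-helix factors, occurred 2 times before the Slc20a1 start and not in the other 4 sequences. Of all promoters, 7.15% held it, a share not matched for the GC content (73%) or CpG number of the Slc20a1 sequence. The matches, in capitals, are shown because Slc20a1 was the cotransporter with the higher KO mean, a difference that was not called. The plus strand is printed 5′ to 3′, with the matches beginning 175 and 22 bases before the start. A relation of the matches to the Slc20a1 level was not tested. A match is a run of letters and not a known site.
Slc20a1, chr2:129198591-129198610: ccagtccCACGTGgaccagc
Slc20a1, chr2:129198744-129198763: ggcaggtCACGTGgggcgca

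Among 5 partners of the apical complex, 0 were called, and at an unadjusted p under 0.05 1 was higher and 1 lower in KO, where 7.18% and 8.26% of all genes tested were and 0.0499% were called. Myo6, the motor that carries NaPi-IIa inward after parathyroid hormone, measured 61.2 ± 1.59 in KO and 55.3 ± 3.07 in WT (log2 fold change 0.15, limma adjusted p = 0.244). Slc9a3r2, which encodes the related scaffold NHERF2, measured 35.9 ± 3.65 in KO and 40.9 ± 1.43 in WT (-0.19, limma adjusted p = 0.266). For both genes the KO and WT libraries did not overlap, where 4.34% of all genes tested were so separated and higher in KO and 4.28% lower. Ezr, the ezrin gene, stood at 133 ± 7.58 in KO and 141 ± 3.34 in WT. The list median was -0.090.

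Of 10 tested genes of hormonal phosphate control, 0 were called (0.0499% of all genes), 1 was higher and 1 lower at an unadjusted p under 0.05 (7.18% and 8.26% of all genes), and the median was -0.063. That median was -0.12 without WT replicate 3 and -0.023 with an upper-quartile factor. The higher and the lower gene are both enzymes of vitamin D, the hormone that raises phosphate uptake from the gut. Cyp27b1, which makes the active form, measured 1.60 ± 0.880 in KO and 3.92 ± 1.42 in WT (log2 fold change -1.15, SE 0.34, limma adjusted p = 0.193), with no overlap of the libraries (4.28% of all genes, lower in KO). Cyp24a1, which degrades it, measured 66.8 ± 23.7 in KO and 32.3 ± 21.6 in WT (1.20, SE 0.40, limma adjusted p = 0.227), with overlap. The parathyroid hormone receptor gene Pth1r stood at 269 ± 8.45 in KO and 300 ± 33.7 in WT (limma adjusted p = 0.366). Phex lay below the filter at 0.0099 scaled FPKM at most, and Fgf23 matched no row by symbol, so it could not be tested.

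Of 7 tested genes of cellular phosphate handling, 0 were called (0.0499% of all genes), 1 was lower at an unadjusted p under 0.05 (8.26% of all genes), and the median was -0.068. With an upper-quartile factor that median was -0.028. That gene was Alpl, the tissue-nonspecific alkaline phosphatase of the brush border, at 160 ± 23.4 in KO and 223 ± 27.4 in WT (-0.48, SE 0.11, limma adjusted p = 0.155), with no overlap of the libraries (4.28% of all genes, lower in KO). Ppip5k2, a kinase that makes the inositol pyrophosphates sensed by XPR1, measured 4.27 ± 0.335 in KO and 3.71 ± 0.351 in WT (0.18, limma adjusted p = 0.338). The mitochondrial phosphate carrier gene Slc25a3 measured 201 ± 9.91 in KO and 213 ± 3.73 in WT (-0.088, limma adjusted p = 0.404). Of the remaining SLC34 and SLC17 genes 4 were tested, with a median of 0.10. Of these 0 were called, where 0.0499% of all genes tested were, and 1 was higher at an unadjusted p under 0.05 (7.18% of all genes). Slc17a3, an organic anion and urate transporter first named for phosphate, was at 147 ± 16.1 in KO and 122 ± 12.1 in WT (0.27, limma adjusted p = 0.224), with no overlap of the libraries (4.34% of all genes, higher in KO). Its relative Slc17a1 stood at 253 ± 17.8 in KO and 241 ± 4.57 in WT, and the lung-type cotransporter Slc34a2 at 1.34 ± 0.298 in KO and 1.17 ± 0.164 in WT.

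Markers of the proximal tubule were set beside the transporters, since that is where Slc34a1 and Slc34a3 are expressed. The marker lists were chosen with earlier results of these data known, so their counts are a description only. All 8 tested markers of the convoluted part had log2 fold changes below 0 (median -0.24), 5 of them at an unadjusted p under 0.05, where 8.26% of all genes tested were lower at that p, and 0 called, where 0.0499% were. Their summed level was 1117 to 1348 scaled FPKM in KO and 1378 to 1629 in WT. The 1629 was WT replicate 3, and the other WT libraries lay at 1378 to 1424. Without WT replicate 3 the median of this list was -0.22. The lowest p values were those of the organic anion transporter Slc22a8 (164 ± 16.9 in KO, 231 ± 28.8 in WT), the glucose transporter Slc5a2 (232 ± 9.48 in KO, 268 ± 7.39 in WT) and the amino acid exchanger Slc7a8 (59.3 ± 5.93 in KO, 73.2 ± 5.72 in WT), with limma adjusted p of 0.137, 0.155 and 0.178. Of 5 markers of the straight part, 3 were higher in KO at an unadjusted p under 0.05, where 7.18% of all genes were, and 0 were called. In this list 4 fold changes lay above 0 and 1 below (median 0.43), and the sum of the 5 was 779 to 960 in KO and 437 to 703 in WT. The 437 was WT replicate 3, and the other WT libraries lay at 616 to 703. Without WT replicate 3 the median of the straight tubule list was 0.37. The 3 markers higher at an unadjusted p under 0.05 were Slc5a8 (60.4 ± 7.81 in KO, 44.6 ± 4.00 in WT), Atp11a (223 ± 28.9 in KO, 148 ± 41.0 in WT) and Slc7a13 (512 ± 36.1 in KO, 390 ± 72.2 in WT). The remaining 2, named after their values were seen, were Slc22a7 at 25.3 ± 24.0 in KO and 10.4 ± 6.79 in WT (1.23, limma adjusted p = 0.413) and the glucose transporter gene Slc5a1 at 18.0 ± 1.41 in KO and 19.5 ± 1.26 in WT (-0.12, limma adjusted p = 0.428). The libraries overlapped for both.

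Of 7 markers of the whole proximal tubule, 5 lay below 0 and 2 above, with a median of -0.057. Of these 0 were called, where 0.0499% of all genes tested were, and 1 was lower at an unadjusted p under 0.05 (8.26% of all genes). Their sum was 3033 to 3254 scaled FPKM in KO and 3382 to 3786 in WT, without overlap, and Miox made up the larger part of it. Miox, the myo-inositol oxygenase gene, was 1755 ± 78.9 in KO and 2211 ± 101 in WT (-0.33, limma adjusted p = 0.108), whereas Cubn, the cubilin gene, was 47.4 ± 1.97 in KO and 49.5 ± 4.23 in WT (limma adjusted p = 0.707). Of 15 markers of other kidney cells 0 differed at an unadjusted p under 0.05, where 15.4% of all genes tested did in either direction. Their median was -0.032, with a summed level of 2116 to 2858 in KO and 1978 to 2620 in WT, and none at 0 in all libraries. The part of these marker differences in the values of Slc34a1 and Slc34a3 was not tested.

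**Figure D4:**
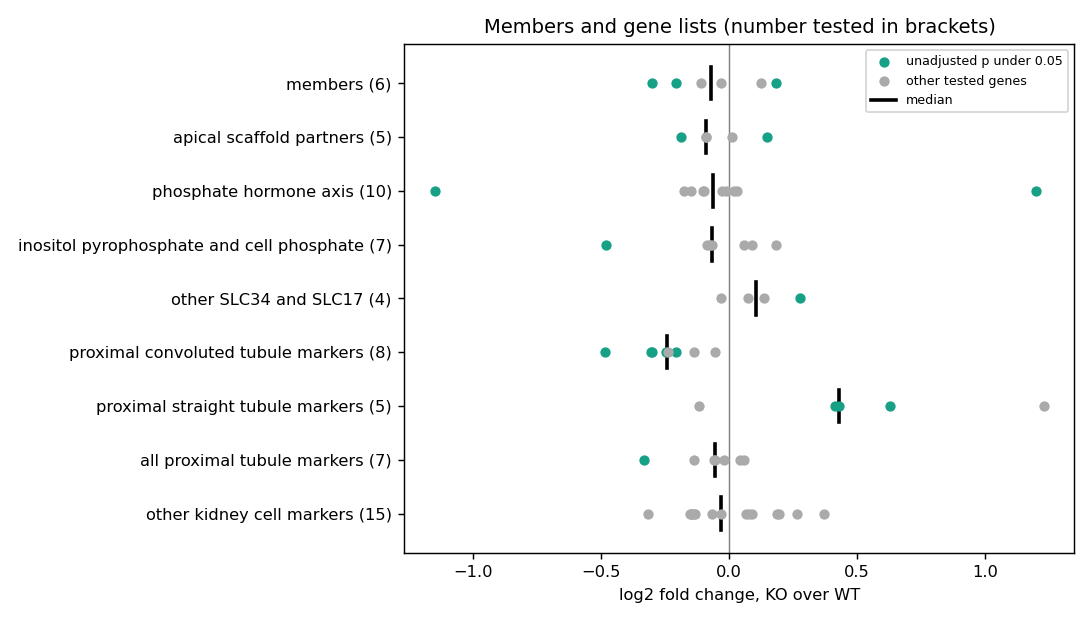
Horizontal axis, log2 fold change (KO over WT) of the 6 members and of the tested genes of each list (number tested in brackets); green marks an unadjusted limma p under 0.05, grey all other genes, and a black bar the median. The convoluted tubule markers lie at or below -0.054 with a median of -0.24, and the straight tubule markers have a median of 0.43.

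The genes whose levels ran most like a member's over the 8 libraries were found by Pearson's r among 12484 genes with a mean of at least 1, as a description in which the genotype difference itself takes part. For Slc34a1 they were the tartrate-resistant acid phosphatase gene Acp5 (r = 0.983), the mitochondrial coenzyme A carrier gene Slc25a42 (0.979) and Edf1 (0.975). For Slc34a3 they were Miox (0.982), the insulin receptor-related receptor gene Insrr (0.974) and Wdr46 (0.968). Acp5 measured 29.4 ± 1.55 in KO and 34.5 ± 2.03 in WT, and Insrr 6.53 ± 0.357 in KO and 8.58 ± 0.657 in WT. For Slc20a1 they were Gm6020 (0.985), Efcab2 (0.985) and Thumpd3 (0.981), for Slc20a2 Golga2 (0.979), Rhbdd3 (0.978) and Fam171a1 (0.969), for Slc9a3r1 the proteasome subunit gene Psmb6 (0.967), the connexin gene Gjb2 (0.965) and Fars2 (0.962), and for Xpr1 Zmym6 (0.980), Rnf20 (0.966) and Slc39a9 (0.958).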

How the data were processed

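RNA of 8 kidneys (4 KO, 4 WT, by the labels' genotype field) was sequenced. The authors deposited FPKM per gene and library with gene length, per the file headers. The submitters' processing notes name STAR 2.5, HTSeq 0.6.1, CASAVA and DESeq2 without roles, and build mm10. Annotation release and strand setting are not given in the sources used here. In each library 100% of the products of FPKM and length were, within 0.01, whole multiples of what 1 read is worth, so reads per gene were recovered. Libraries were divided by median-ratio factors (0.978 to 1.03), genes with a mean of at least 0.5 were kept (14022), and limma 3.58.1 (R 4.3.3) was fitted to log2(value + 0.5) (eBayes with trend, genotype only), two-sided and Benjamini-Hochberg adjusted over all genes. Fold changes on this scale understate those of low genes. Permutation tests of group differences were exact. Those of correlations permuted the deviations over both genotypes together and are approximate. The scripts were tested on simulated data. The members and lists were chosen with earlier results of these data known. Genes named are the members, C1qtnf1, the up to 3 tested genes of smallest p in each list, the 3 genes most like each member and the neighbours of Slc9a3r1; 1 gene that this rule names is not reported here. Alternatives were other pseudocounts, filters, scalings, limma settings, voom on recovered reads, removal of GC and length trends (splines of 4 degrees of freedom; GC known for 99.5% of genes) and leaving out each library. For lists and correlations, and for ratios with quantile normalization, they were added after seeing the data. Reads are not counted by molecule, so the counting error given covers counting only.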

Additional observations from a re-analysis of the deposited data

Results flagged for a closer look

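Xpr1 in KO replicate 3 stood far from the other KO libraries, at 17.6 scaled FPKM against 20.4, 20.1 and 20.2 in KO replicates 1, 2 and 4. Its gap to the nearest library was 0.885 of the range of the KO libraries, above the 95% critical value of Dixon's test for 4 samples. Without that library the log2 fold change of Xpr1 was 0.17 (limma adjusted p = 0.280), against 0.13 with it. It was the only 1 of 68 groups of 4 examined, and chance alone flags about 1 in 20.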

How the results depend on the processing

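No paired analysis was possible because the animals of the groups share no number in the labels. Over 19 alternatives, none of the 6 members was called (0 calls), and Slc34a1, Slc34a3, Slc20a1, Slc9a3r1 and Xpr1 kept their direction in 19 of 19. Slc20a2 kept it in 16, and stood at 0.0081 with the upper-quartile factor. The other filters and limma's eBayes settings leave a fold change as it is, so they could not alter a direction. Xpr1 stood at 0.010 after removal of GC and length trends. Leaving out each library gave -0.24 to -0.18 for Slc34a1, -0.32 to -0.26 for Slc34a3, 0.15 to 0.22 for Slc20a1, -0.090 to 0.014 for Slc20a2 (above 0 without KO replicate 3 or WT replicate 1), -0.19 to -0.055 for Slc9a3r1 and 0.092 to 0.17 for Xpr1. The count of genes called over all genes was 7, and 5 to 16 when a library was left out, the 16 without WT replicate 3. The median of the apical scaffold partners was -0.049 with the upper-quartile factor, -0.043 with quantile normalization, -0.0048 after removal of GC and length trends and -0.10 to -0.031 with a library left out. The median of the cell phosphate genes was -0.028 with the upper-quartile factor, that of the whole proximal tubule markers 0.025 with quantile normalization, and that of other kidney cells -0.054 to 0.063 with a library left out. The count of called correlations was 1, and it was 0 with the upper-quartile factor, with quantile normalization and after removal of GC and length trends; leaving out a library gave 0 to 3, with 0 without WT replicate 1 and 3 without KO replicate 2. The cause of these shifts was not tested. The ratios within libraries do not depend on any single factor per library, which cancels. With quantile normalization, added after seeing the data, the log2 difference was -0.26 for Slc34a3 to Slc34a1 (-0.094 as reported) and 0.045 for Slc34a1 to Slc9a3r1 (-0.10 without it). With a library left out the differences were -0.12 to -0.069 and -0.12 to -0.058, and 0.14 to 0.32 for Slc20a1 to Slc20a2. With 448 to 638 reads of Slc20a1 per library, counting error alone gives a coefficient of variation of about 4.28%, and 4 libraries a group leave intervals of the size given for each member.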
